A study of Mus musculus with 2 samples.

Results

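The genes described here are 7 of the 32245 gene symbols counted in single cells of the mouse adrenal gland, taken by name. They are the chemokine ligands Ccl2, Ccl7, Ccl8 and Ccl12, the receptor Ccr2, the fractalkine receptor Cx3cr1 and its ligand fractalkine, Cx3cl1. All 7 were counted in both libraries.

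The tissue was the adrenal gland of female C57BL/6J mice of the genotype SF1-Cre+;Znrf3Fx/Fx, pooled from 3 adrenals at 9 weeks of age and from 2 adrenals at 6 weeks. Both ages carried the same alleles, and no gland with intact Znrf3 was analysed here. SF1 drives the Cre in steroidogenic cells, so the floxed Znrf3, a membrane ubiquitin ligase that restrains Wnt signalling, is targeted in cortical cells. The design text places the ages on either side of a switch between hyperplasia (6 weeks) and regression (9 weeks) and asks what immune response goes with it. There was 1 library per age, so no difference between ages was tested and no p-value is given. Intervals are 95% intervals that cover counting error only, and not the spread between animals.

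Ccl2, Ccl7 and Ccl12 bind Ccr2, the receptor that classical (Ly6C-high) monocytes need to leave the bone marrow and to enter tissue. Mouse Ccl8 is best known as a ligand of Ccr8. Fractalkine is made as a membrane-anchored chemokine that the proteases Adam10 and Adam17 shed, and its receptor Cx3cr1 marks non-classical monocytes, many tissue macrophages and some cytotoxic lymphocytes.

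The 9-week library held 9941 cells after filtering, with a median of 7029 UMIs (unique molecular identifiers, one per captured transcript), and the 6-week library 8133 cells with a median of 11348. The libraries shared 29 cell barcodes. Classes were named from marker genes that include none of the 7, such as Cyp11a1, Star and Cyp21a1 for adrenocortical-like and C1qa, Adgre1 and Csf1r for macrophage-like cells. Macrophage-like cells made up 22.9% of cells at 9 weeks and 12% at 6 weeks, and monocyte-like cells 2.72% and 1.80%. Dendritic-like cells made up 12% at 9 weeks and 3.63% at 6 weeks, and adrenocortical-like cells 21.1% and 52.7%. Cells had been sorted as viable single cells, so these are shares of the sorted suspension and not of the gland. Levels are given as UMIs per 1000000 UMIs of the class (CPM), which sets aside how many cells of the class each library holds.

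Most UMIs of the chromosome 11 ligands and of Cx3cr1 came from macrophage-like cells at both ages, and most UMIs of Cx3cl1 came from adrenocortical-like cells. Macrophage-like cells held 77.5% of the Ccl2 UMIs at 9 weeks and 71.9% at 6 weeks, 80.9% and 84.6% of the Ccl7 UMIs, 93.9% and 94.5% of the Ccl8 UMIs, and 95.8% and 87.8% of the Ccl12 UMIs. The same cells held 19.3% of all UMIs at 9 weeks and 7.25% at 6 weeks. For the receptors, macrophage-like cells held 89.8% of the Cx3cr1 UMIs at 9 weeks and 88.7% at 6 weeks. The UMIs of Ccr2 were spread over more classes, with 52.7% at 9 weeks and 44.4% at 6 weeks in dendritic-like cells and 24.6% and 31.8% in monocyte-like cells. Adrenocortical-like cells held 84.3% of the Cx3cl1 UMIs at 9 weeks and 87.8% at 6 weeks, and endothelial-like cells 5.46% and 5.24%.

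**Figure D1:**
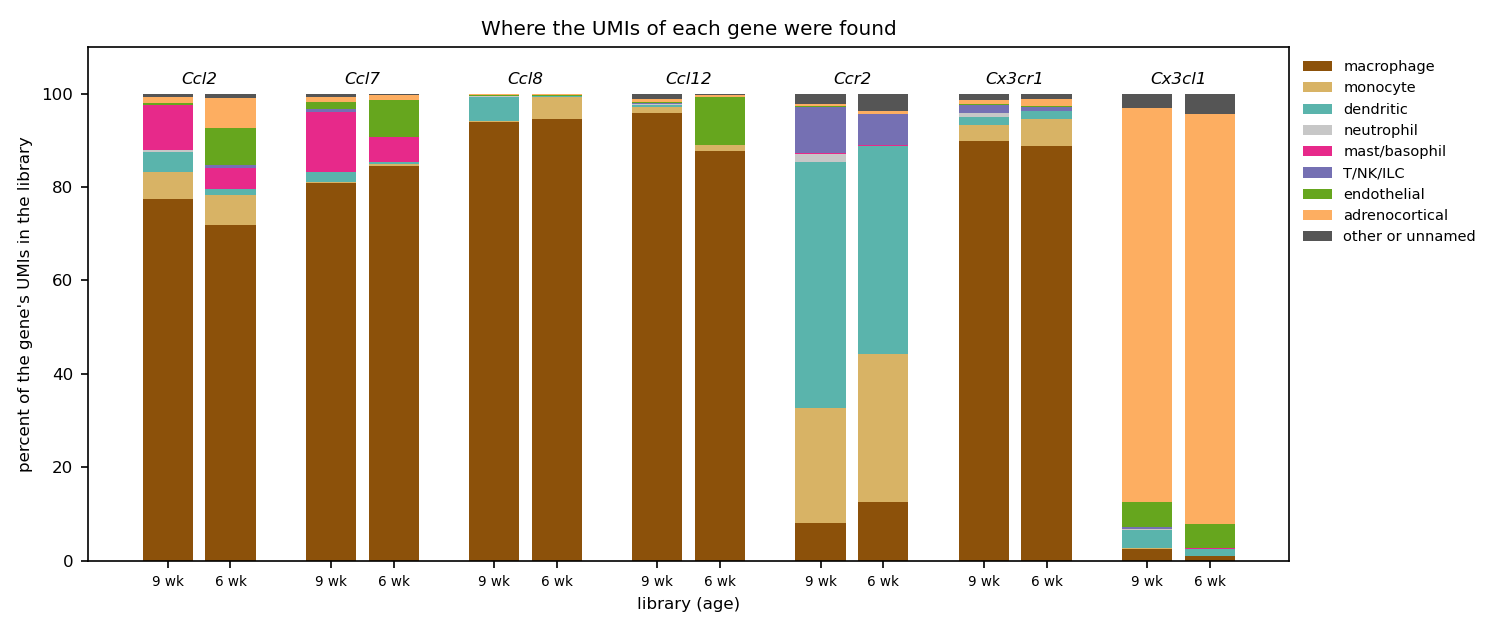
Share of each gene's UMIs (percent) by cell class, with the 9-week library left of the 6-week library for each gene. Macrophage-like cells fill most of the bars of Ccl2, Ccl7, Ccl8, Ccl12 and Cx3cr1, dendritic-like and monocyte-like cells most of Ccr2, and adrenocortical-like cells most of Cx3cl1 (84.3% at 9 weeks and 87.8% at 6 weeks).

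The ligands Ccl2, Ccl7, Ccl12 and Ccl8 lie in this order on the plus strand of mouse chromosome 11 (mm10, GENCODE M21), at chr11:82035571-82037453, chr11:82045712-82047525, chr11:82101845-82103400 and chr11:82115185-82116799. They span 81229 bases, with Ccl11, an eosinophil chemokine at 0 UMIs in every class compared here, between Ccl7 and Ccl12. No stretch of 31 bases was shared between the annotated transcripts of any 2 of the 7 genes, so reads that long are not shared among them. Ccl2 overlaps the opposite-strand gene Gm17268. Ccr2 (chr9:124101950-124113557, plus strand) and Cx3cr1 (chr9:119901616-120069879, minus strand) lie on chromosome 9, and the annotated span of Cx3cr1 overlaps 9 other genes, of which Gorasp1, Csrnp1 and Xirp1 are on the same strand. Cx3cl1 lies at chr8:94772009-94782427 on the plus strand. The 250 bases before the RefSeq start of Ccl12 and of Ccl8 are shown because these neighbouring genes had different levels across macrophage subsets and ages. Both are from RefSeq (GRCm38.p6), on the plus strand and read 5′ to 3′, with the letters TATAAA in capitals.
Ccl12 promoter (chr11:82101595-82101844): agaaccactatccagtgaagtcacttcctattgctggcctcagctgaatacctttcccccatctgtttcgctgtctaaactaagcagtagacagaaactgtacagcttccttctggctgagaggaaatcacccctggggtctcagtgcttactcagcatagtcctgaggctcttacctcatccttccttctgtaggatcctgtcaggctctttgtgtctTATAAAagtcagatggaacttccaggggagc
Ccl8 promoter (chr11:82114935-82115184): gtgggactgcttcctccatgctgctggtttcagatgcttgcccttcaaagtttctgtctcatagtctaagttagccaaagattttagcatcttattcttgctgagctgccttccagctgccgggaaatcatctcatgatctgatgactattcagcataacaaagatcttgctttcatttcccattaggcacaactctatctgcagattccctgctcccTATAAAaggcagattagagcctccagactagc
The TATAAA match starts 31 bases before the start of Ccl12 and 32 bases before the start of Ccl8, and the same letters end at the base before the RefSeq start of Cx3cl1. Of 32851 promoters of this length, 12.4% hold these letters on either strand. The search covered 5 of the 7 genes, for which RefSeq promoters were at hand, and of the other 8 motifs 1 matched, the interferon response element on the minus strand 86 to 78 bases before the RefSeq start of Ccr2. The 8 were NF-kB (GGGNNTTTC, in 3.72% of all promoters), an interferon response element (GAAANNGAA, 7.13%), STAT (TTCNNNGAA, 7.02%), AP-1 (TGANTCA, 6.75%), C/EBP (TTGCNNAA, 9.56%), PU.1 (GAGGAAGT, 2.44%), SF1 (AAGGTCA, 4.08%) and TCF/LEF (ATCAAAG, 3.21%), each on both strands. The windows of Ccr2 (chr9:124101933-124102182) and Cx3cl1 (chr8:94771930-94772179) reach past the GENCODE starts of these genes given above. The Ccr2 and Cx3cl1 matches therefore lie inside the GENCODE gene spans.

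Ccl2, the main monocyte attractant of this family, was at 53.3 CPM (49.9 to 56.9, from 915 UMIs) in macrophage-like cells at 9 weeks and at 66.5 CPM (60.3 to 73.2, from 417 UMIs) at 6 weeks. The ratio of 9 over 6 weeks was 0.802 (0.714 to 0.903), which is inside the 1.5-fold used as a call. The cluster makeup of the class differed between ages. A cluster led by H2-M2, Fcgr4 and C1qb held 1871 of 2272 macrophage-like cells at 9 weeks and 466 of 972 at 6 weeks, and a cluster led by Fcrls, Cbr2 and Pf4 held 178 at 9 weeks and 382 at 6 weeks. After each cell was thinned to 2000 UMIs, 7.01% of macrophage-like cells at 9 weeks and 8.09% at 6 weeks held a Ccl2 UMI, against 0.332% and 0% of B cell-like cells, which should lack it. Without thinning these were 15.7% and 14.5% of macrophage-like cells, at median depths of 7129.5 UMIs at 9 weeks and 5931 at 6 weeks (B cell-like cells had medians of 2848 and 2357.5). Thinning left out 104 macrophage-like cells at 9 weeks and 70 at 6 weeks as too shallow, and 30 and 27 B cell-like cells. The interval of the Ccl2 share reached 1.84% in 301 thinned B cell-like cells at 9 weeks and 3.33% in 109 at 6 weeks. For Ccl7, Ccl8 and Ccl12, a count of 0 at 9 weeks allows a share of up to 1.22%. Monocyte-like cells had 29.7 CPM of Ccl2 (23.1 to 37.6) at 9 weeks, and at 6 weeks 35.8 CPM (25.2 to 49.4), and the intervals overlap.

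Mast/basophil-like cells also held Ccl2 and Ccl7, a close relative of Ccl2. The cluster led by the mast cell proteases Mcpt4, Cma1 and Cpa3 had 1018 CPM of Ccl2 (838 to 1225) in 32 cells at 9 weeks and 596 CPM (389 to 873) in 8 cells at 6 weeks. Its Ccl7 level was 672.6 CPM (528 to 844) at 9 weeks, and at 6 weeks 366.8 CPM (210 to 596). The cluster led by the basophil protease Mcpt8, with 14 cells at 9 weeks and 11 at 6 weeks, had 0 Ccl2 UMIs at both ages. The mast/basophil-like class as a whole had 46 cells at 9 weeks and 19 at 6 weeks. It held 9.49% of all Ccl2 UMIs at 9 weeks and 4.48% at 6 weeks, from 0.185% and 0.0853% of all UMIs. At 6 weeks monocyte-like, endothelial-like and adrenocortical-like cells each held more. However, 44 of 47 endothelial-like and 26 of 37 adrenocortical-like Ccl2 UMIs at 6 weeks were in 1 cell each. In the mast/basophil-like class, 15 of 26 at 6 weeks were in 1 cell. The mast/basophil-like class held 0 UMIs of Ccl8 and of Ccl12 at both ages. With fewer than 50 cells per library, this class was not compared between ages.

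Ccl7 was at 27.2 CPM (24.8 to 29.8, from 467 UMIs) in macrophage-like cells at 9 weeks and at 40.3 CPM (35.5 to 45.6, from 253 UMIs) at 6 weeks, a ratio of 0.675 (0.578 to 0.789) and a log2 ratio of -0.49. The 5 highest cells held 16.3% of these UMIs at 9 weeks, against 40.7% at 6 weeks. Without the 5 highest cells of each library the log2 ratio was -0.06. It was past 1.5-fold lower at 9 weeks under 3 other settings, at -0.63 with at least 1000 genes per cell, -0.61 with the members kept in the clustering and -0.63 with subsets weighted alike. Thinned shares of cells with Ccl7 were 3.74% at 9 weeks and 2.99% at 6 weeks (8.10% and 7.41% unthinned), against 0% of B cell-like cells at both ages. Monocyte-like cells held 1 Ccl7 UMI in each library.

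Ccl12, a mouse ligand of Ccr2, was at 161.1 CPM (155.1 to 167.2, from 2764 UMIs) in macrophage-like cells at 9 weeks and at 213.3 CPM (202 to 225.1, from 1338 UMIs) at 6 weeks. The ratio was 0.755 (0.707 to 0.807), again inside 1.5-fold, and the thinned shares of cells were 17.3% at 9 weeks and 18.0% at 6 weeks (30.4% and 27.9% unthinned), against 0% of B cell-like cells. Ccl12 was itself a leading gene of the macrophage-like cluster with Fcrls, Cbr2 and Pf4. That cluster held 178 of 2272 macrophage-like cells at 9 weeks and 382 of 972 at 6 weeks, and its part in the difference was not tested. Monocyte-like cells had 17.9 CPM of Ccl12 at 9 weeks and 17.4 CPM at 6 weeks. Endothelial-like cells had 1.93 CPM at 9 weeks and 46.0 CPM at 6 weeks, but 152 of the 154 UMIs at 6 weeks came from 1 cell. That cell also held 44 Ccl2, 24 Ccl7 and 26 C1qa UMIs beside 7 Plvap UMIs and 1 Pecam1 UMI, so it carried macrophage and endothelial transcripts under 1 barcode. Without the 5 highest cells of each library, the log2 ratio of Ccl12 in endothelial-like cells was 0.20. In B cell-like cells, 0 members reached the level tested, where 5.88% of 7737 tested genes were past 1.5-fold lower at 9 weeks and 16.5% higher.

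Ccl8 had the largest fold between ages of the 6 members tested in macrophage-like cells. It was at 19.6 CPM (17.6 to 21.9, from 337 UMIs) in these cells at 9 weeks and at 144.4 CPM (135.2 to 154.2, from 906 UMIs) at 6 weeks, a ratio of 0.136 (0.120 to 0.154) and a log2 ratio of -2.60. Ccl8 and Ccr2 were the 2 of 6 tested members past 1.5-fold lower at 9 weeks in these cells, and 0 were higher. Over all 7888 genes tested in the class, 2.69% were that much lower and 1.45% that much higher. Thinned shares of cells with Ccl8 were 2.08% (1.52 to 2.77) at 9 weeks and 6.76% (5.21 to 8.60) at 6 weeks (3.92% and 9.67% unthinned), against 0% of B cell-like cells at both ages. Cells with the gene also held more of it at 6 weeks, with a mean of 3.79 UMIs at 9 weeks and 9.64 at 6 weeks.

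Few cells held most of the Ccl8. Of the macrophage-like UMIs of Ccl8, 8 cells held 50% at 9 weeks and 5 cells at 6 weeks, and the highest cell held 104 UMIs at 9 weeks and 135 at 6 weeks. For Ccl12, 79 cells held 50% at 9 weeks and 30 at 6 weeks, and for Ccl2 these were 58 and 22 cells. For the receptor Cx3cr1, 534 cells held 50% at 9 weeks and 220 at 6 weeks. Without the 5 highest cells of each library, Ccl8 was at 10.95 CPM at 9 weeks and 69.1 CPM at 6 weeks, still past 1.5-fold lower at 9 weeks. Outside macrophage-like cells, 13 of the 18 Ccl8 UMIs of 9-week dendritic-like cells were in 1 cell, and 41 of the 46 of 6-week monocyte-like cells were in 1 cell.

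**Figure D2:**
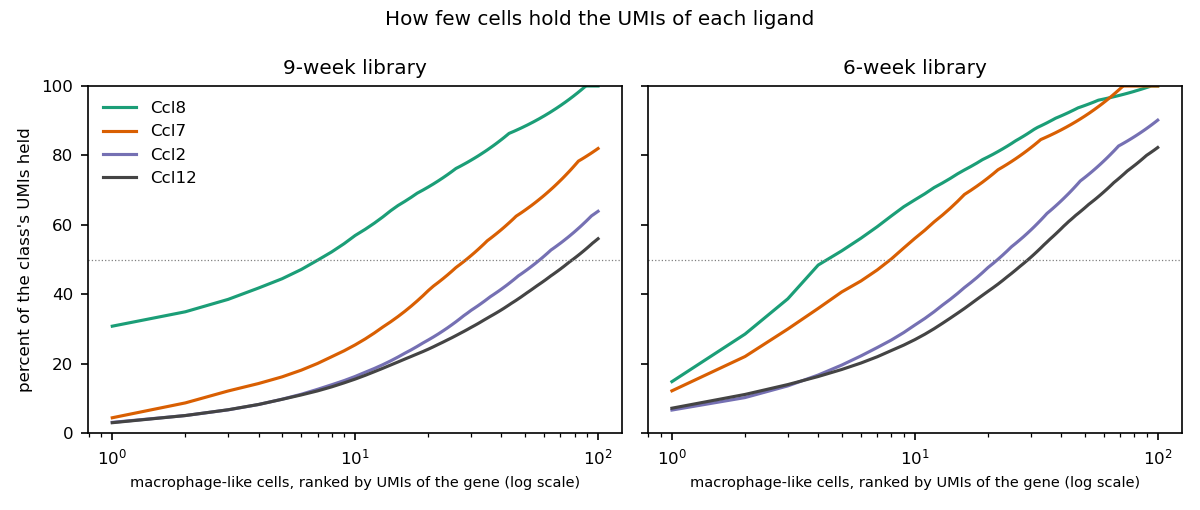
Cumulative share of each ligand's UMIs in macrophage-like cells (percent) against the rank of the cell by its UMIs. The 9-week and 6-week libraries are separate panels, and each ligand is a line. The Ccl8 lines are the steepest, with 50% of the UMIs in 8 cells at 9 weeks and in 5 at 6 weeks.

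The macrophage-like and monocyte-like cells were divided into 14 subsets to place these genes more finely. Subsets led by Sema6d and Iigp1 (1058 cells at 9 weeks, 113 at 6 weeks) and by Clec4b1 and Cd74 (856 and 281) were the main ones at 9 weeks. The subset led by Fcrls and Cbr2 held 19 cells at 9 weeks and 369 at 6 weeks, or 0.747% and 33.0% of the cells divided. Smaller subsets were classical-monocyte-like (199 cells at 9 weeks, 105 at 6 weeks), non-classical-monocyte-like (20 and 14), lipid-associated-like with Gpnmb and Spp1 (74 and 63), resident-like with Retnla, Lyve1 and Folr2 (4 and 13), 2 with cell cycle genes, 1 led by the interferon-induced chemokines Cxcl10 and Cxcl9 (48 and 33), 1 of low UMI counts with Cbr2 and Ltc4s (28 and 46), and 3 unnamed subsets led by genes of other classes (26 and 7, 6 and 16, and 10 and 6 cells).

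Within the main subset at 9 weeks, led by Sema6d and Iigp1, Ccl8 was at 16.3 CPM at 9 weeks and 41.7 CPM at 6 weeks. In the Clec4b1 and Cd74 subset it was at 31.4 CPM at 9 weeks and 163.7 CPM at 6 weeks, where 104 of 193 UMIs at 9 weeks and 135 of 326 at 6 weeks were in 1 cell each. In the Fcrls and Cbr2 subset it was at 21.2 CPM at 9 weeks, from 2 UMIs, and 63.1 CPM at 6 weeks, from 124. The resident-like subset held 1 Ccl8 UMI in 4 cells at 9 weeks, against 1534 CPM in 13 cells at 6 weeks, where 124 of 159 UMIs were in 1 cell. Both monocyte-like subsets held 0 Ccl8 UMIs at both ages. With the subsets weighted alike at both ages, the log2 ratio of Ccl8 was -2.22, though this weighting rests in part on subsets with few cells at 9 weeks.

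The Cxcl10 and Cxcl9 subset had 515.8 CPM of Ccl12 (448 to 591) at 9 weeks, and at 6 weeks 393.9 CPM (324 to 474), with 85 of 206 UMIs at 9 weeks and 53 of 112 at 6 weeks in 1 cell each. Its Ccl2 level was 205.3 CPM (163 to 255) at 9 weeks, and at 6 weeks 80.9 CPM (51.3 to 121), and 29 of the 82 UMIs at 9 weeks were in 1 cell. Its Ccl7 level was 92.6 CPM at 9 weeks and 112.5 CPM at 6 weeks. Ccl2 was past 1.5-fold lower at 9 weeks in both subsets with cell cycle genes. It was at 78.5 CPM at 9 weeks and 192.7 CPM at 6 weeks in the one led by Ube2c and Hist1h1b, and at 44.0 and 226.7 CPM in the one led by Uhrf1 and Dtl. At 6 weeks these subsets had 30 and 22 cells, and 28 of 62 and 14 of 53 Ccl2 UMIs were in 1 cell each. The cell with 28 also held 97 Ccl12 UMIs. In the Cxcl10 and Cxcl9 subset Ccl8 was at 2.50 CPM at 9 weeks, from 1 UMI, and at 516.9 CPM at 6 weeks. Of the 147 UMIs at 6 weeks, 88 were in 1 cell. Ccl12 was at 185.3 CPM at 9 weeks and 260.7 CPM at 6 weeks in the Sema6d and Iigp1 subset, at 146.4 and 150.2 CPM in the Clec4b1 and Cd74 subset, and at 222.6 and 266.1 CPM in the Fcrls and Cbr2 subset. In the Ube2c and Hist1h1b subset Ccl12 was at 64.4 CPM at 9 weeks and 463.0 CPM at 6 weeks, where 97 of 149 UMIs were in 1 cell. In the lipid-associated-like subset it was lower, from 24 UMIs in 74 cells at 9 weeks (19.2 to 44.6 CPM) and at 31.9 CPM at 6 weeks, and in the classical-monocyte-like subset it was at 14.0 and 6.88 CPM. The non-classical-monocyte-like subset held 0 UMIs of Ccl2, Ccl7, Ccl8 and Ccl12 at both ages.

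**Figure D3:**
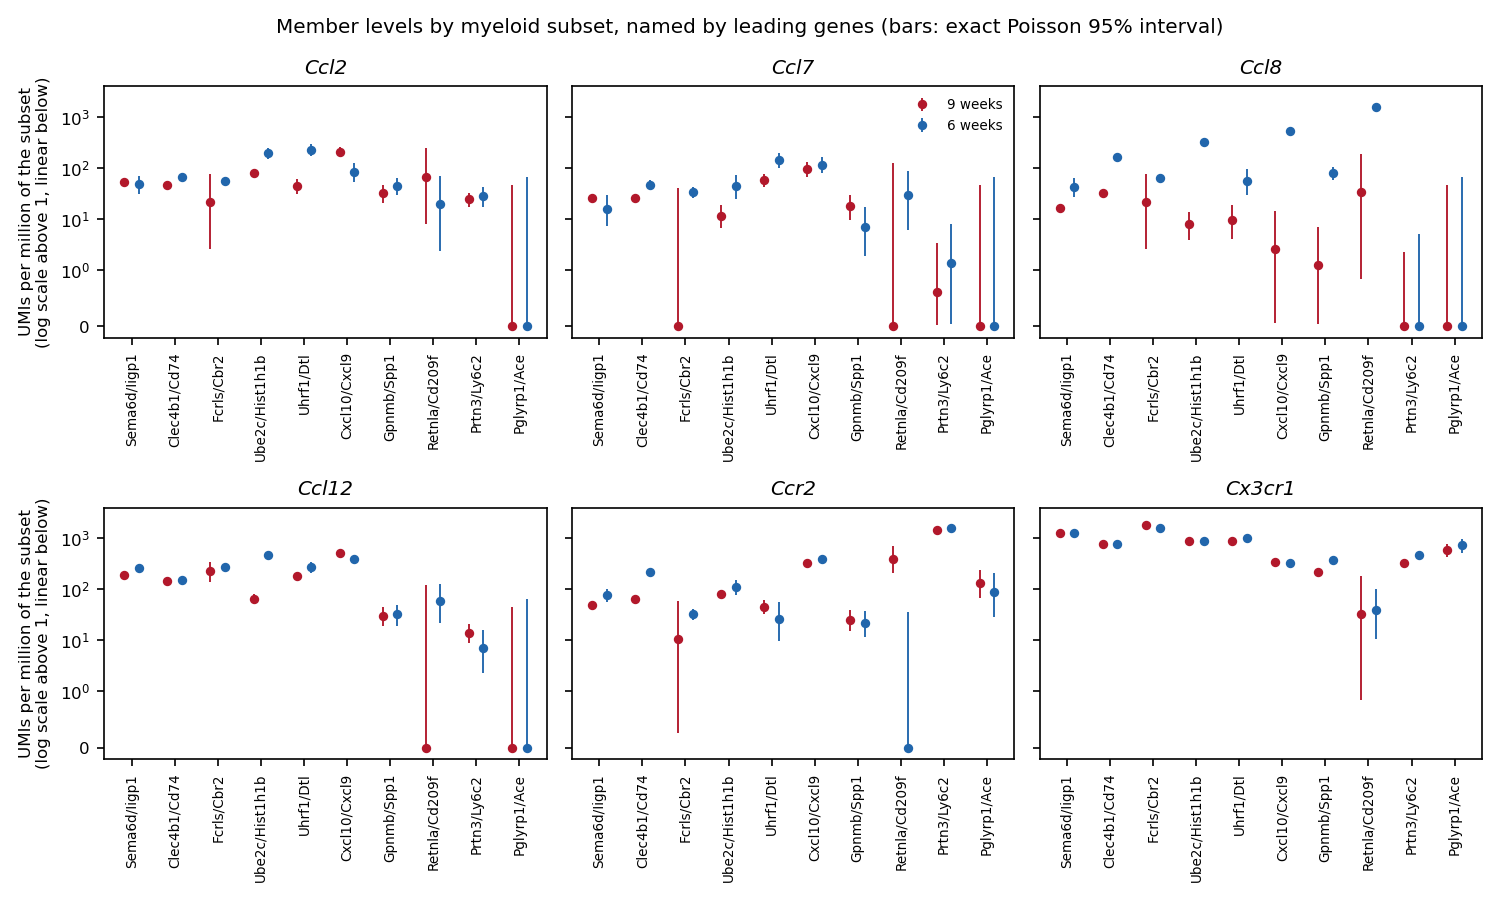
Level (CPM, log axis above 1 and linear below) of 6 of the genes in 10 macrophage-like and monocyte-like subsets named by leading genes, 9-week values left of 6-week values, with exact Poisson 95% intervals as bars. Ccr2 stands highest in the classical-monocyte-like subset (1430 CPM at 9 weeks and 1578 CPM at 6 weeks) and Cx3cr1 in the Fcrls and Cbr2 subset (1834 and 1586 CPM).

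Ccl2, Ccl7 and Ccl12 were often held by the same macrophage-like cells. At 2000 UMIs per cell, 61.7% of 81 cells with a Ccl7 UMI also held Ccl12 at 9 weeks, against 15.6% of 2087 cells without Ccl7. At 6 weeks these shares were 48.1% of 27 cells and 17.0% of 875 cells. Among cells with Ccl2, 46.1% held Ccl12 at 9 weeks and 39.7% at 6 weeks, against 15.1% and 16.0% of cells without Ccl2. At 9 weeks 3.29% of cells with Ccl2 and 1.98% of cells without it held Ccl8, with overlapping intervals. At 6 weeks 17.8% of cells with Ccl2 and 5.79% of cells without it held Ccl8. Of the cells with Ccl12, 4.00% held the receptor Ccr2 at 9 weeks and 7.41% at 6 weeks, against 6.64% and 8.78% of cells without Ccl12. At the highest Ccl8 counts, the cell with 104 Ccl8 UMIs at 9 weeks held 1 Ccl12 UMI, and the cell with 135 at 6 weeks held 14. Each share describes 1 library.

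Ccr2 was at its highest level in monocyte-like cells, a class that is 1 cluster at both ages, with 1188 CPM (1144 to 1234, from 2722 UMIs) at 9 weeks and 1345 CPM (1275 to 1418, from 1389 UMIs) at 6 weeks. The ratio was 0.883 (0.828 to 0.943), inside 1.5-fold. Thinned shares of cells with Ccr2 were 76.0% at 9 weeks and 79.0% at 6 weeks (86.7% and 89.0% unthinned), against 0.243% and 0.0709% of adrenocortical-like cells, whose median depths were 14777 UMIs at 9 weeks and 15538 at 6 weeks. The median depths of monocyte-like cells were 7542.5 and 6724.5 UMIs. In the classical-monocyte-like subset Ccr2 was at 1430 CPM at 9 weeks and 1578 CPM at 6 weeks, and in the non-classical-monocyte-like subset it was lower, at 134.2 and 88.4 CPM. Of the 5 members tested in monocyte-like cells, Ccl8 was past 1.5-fold lower at 9 weeks and 0 were higher. The share of all 7704 tested genes past 1.5-fold there was 3.65% lower and 7.05% higher. That Ccl8 count rests on the 1 cell named above, and the log2 ratio without the 5 highest cells was 0.00.

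Dendritic-like cells had 312.3 CPM of Ccr2 (304 to 320, from 5834 UMIs) at 9 weeks and 517.6 CPM (495 to 541, from 1938 UMIs) at 6 weeks, a ratio of 0.603 (0.573 to 0.636) and a log2 ratio of -0.72. Both members tested in this class, Ccr2 and Cx3cr1, were past 1.5-fold lower at 9 weeks, where 2.86% of 7378 tested genes were that much lower and 1.29% that much higher. Thinned shares of dendritic-like cells with Ccr2 were 38.2% at 9 weeks and 54.8% at 6 weeks (69.8% and 81.0% unthinned), at median depths of 14745 and 12647 UMIs. The type 1 dendritic cluster led by Xcr1 had 310 CPM at 9 weeks and 523 CPM at 6 weeks. In the cluster of cycling dendritic-like cells Ccr2 was at 281 CPM at 9 weeks and 558 CPM at 6 weeks, and in the mature cluster with Ccl17, Ccl22 and Ccr7 at 113 and 185 CPM. The cluster with Cd209a and Mgl2, genes of type 2 dendritic cells, had 571 CPM at 9 weeks and 627 CPM at 6 weeks, inside 1.5-fold.

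Macrophage-like cells had 52.4 CPM of Ccr2 (49.0 to 55.9, from 899 UMIs) at 9 weeks and 87.2 CPM (80.1 to 94.8, from 547 UMIs) at 6 weeks, with a log2 ratio of -0.68. Thinned shares of cells were 6.18% at 9 weeks and 8.54% at 6 weeks (10.1% and 13.1% unthinned). The Clec4b1 and Cd74 subset had 63.0 CPM at 9 weeks and 216.9 CPM at 6 weeks, the Sema6d and Iigp1 subset 48.7 and 76.5 CPM, and the Fcrls and Cbr2 subset 10.6 and 32.1 CPM. The log2 ratio was -1.24 when each cluster had the same weight at both ages and -1.18 when each subset did, with the Fcrls and Cbr2 subset at 1 Ccr2 UMI in 19 cells at 9 weeks. Of all genes tested in macrophage-like cells, 2.69% were past 1.5-fold lower at 9 weeks and 1.45% past it higher. Of the classical monocyte genes, 4 of 12 were tested in these cells, with 2 lower at 9 weeks (F13a1, a coagulation factor, at 13.2 CPM at 9 weeks and 108.4 CPM at 6 weeks, and S100a4) and 1 higher (Ms4a4c). F13a1 was also a leading gene of the macrophage-like cluster with Retnla, Folr2 and Lyve1, which held 3 cells at 9 weeks and 13 at 6 weeks. Their part in the Ccr2 difference was not tested. The Cxcl10 and Cxcl9 subset, which the monocyte-like cluster shares (23 of its 48 cells at 9 weeks, 19 of 33 at 6 weeks), had 320.5 CPM at 9 weeks and 383.3 CPM at 6 weeks.

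T, NK and innate lymphoid cells (T/NK/ILC-like) had 207.9 CPM of Ccr2 at 9 weeks and 163.4 CPM at 6 weeks, with a ratio of 1.27 (1.12 to 1.45) and equal thinned shares of cells of 24.3% at both ages (35.2% at 9 weeks and 31.9% at 6 weeks unthinned). Their naive-like cluster with Dapl1, Il7r and Lef1 was at 11.5 CPM at 9 weeks and 4.75 CPM at 6 weeks. Neutrophil-like cells had 34.9 CPM of Ccr2 (184 UMIs) at 9 weeks and 3.14 CPM (1 UMI) at 6 weeks, with a counting interval of the ratio of 1.97 to 441. The 5 highest cells held 52.7% of the 184 UMIs. Immature clusters led by Ltf and Ngp (284 cells at 9 weeks, 1 at 6 weeks) and by Elane and Prtn3 (72 and 0) belonged almost wholly to the 9-week library. In the mature cluster with Il1b and Cxcr2 alone, Ccr2 was at 53.5 CPM (48 UMIs) at 9 weeks and 3.20 CPM (1 UMI) at 6 weeks. Both members tested in neutrophil-like cells were past 1.5-fold higher at 9 weeks, in a class where 26.5% of 6846 tested genes were that much higher and 33.3% that much lower. Of 9 tested genes of classical monocytes, 7 were also past 1.5-fold higher in these cells and 1 lower, and their part in the Ccr2 value was not tested. The list of these genes holds Chil3, which was also a leading gene of the Elane and Prtn3 cluster.

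**Figure D4:**
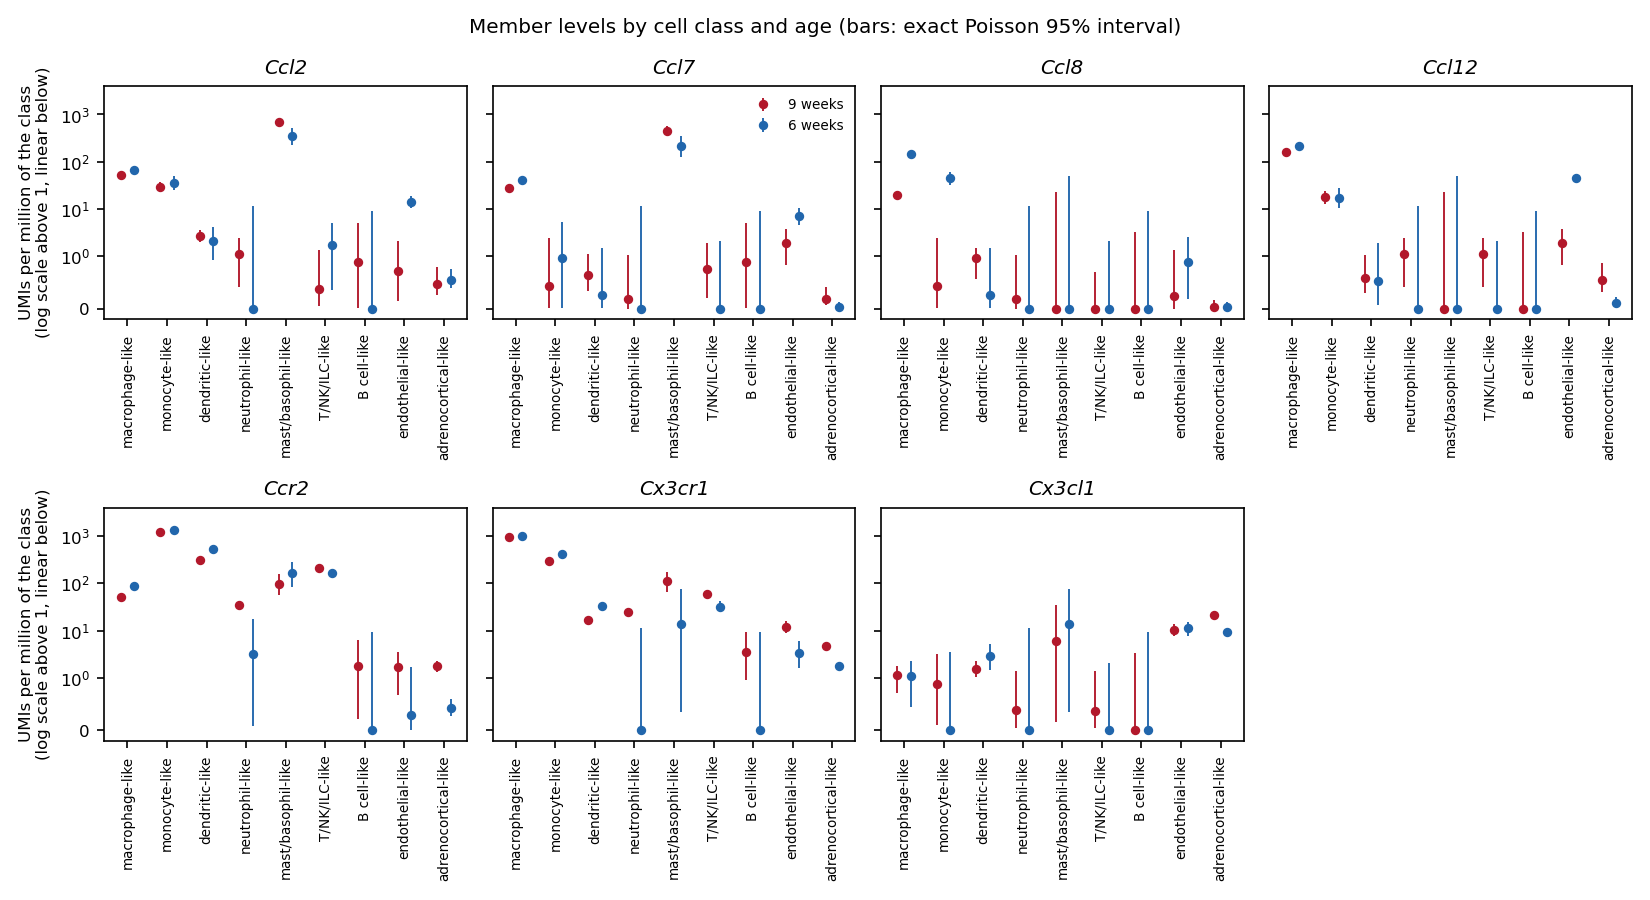
Level (CPM, log axis above 1 and linear below) of each of the 7 genes in the 8 compared cell classes and in mast/basophil-like cells, 9-week values left of 6-week values, with exact Poisson 95% intervals as bars. Within macrophage-like cells Ccl8 is the ligand with the widest gap, at 19.6 CPM at 9 weeks and 144.4 CPM at 6 weeks, and Cx3cr1 differs little (972.7 and 1022 CPM).

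Cx3cr1 was at nearly the same level in macrophage-like cells at both ages, with 972.7 CPM (958 to 987.5, from 16692 UMIs) at 9 weeks and 1022 CPM (997 to 1048, from 6412 UMIs) at 6 weeks, a ratio of 0.951 (0.924 to 0.979). Thinned shares of cells were 78.2% at 9 weeks and 78.0% at 6 weeks (94.5% and 90.2% unthinned), against 0.680% and 0.402% of adrenocortical-like cells. The range over subsets was wider than that between ages. The Fcrls and Cbr2 subset had 1834 CPM at 9 weeks and 1586 CPM at 6 weeks, the Sema6d and Iigp1 subset 1262 and 1236 CPM, and the Clec4b1 and Cd74 subset 774.6 and 774.4 CPM. The lipid-associated-like subset had 218.7 CPM at 9 weeks and 374.0 CPM at 6 weeks, and the resident-like subset 33.1 and 38.6 CPM. In monocyte-like cells Cx3cr1 was at 291.1 CPM at 9 weeks and 418.3 CPM at 6 weeks, inside 1.5-fold. The non-classical-monocyte-like subset had 585.6 CPM at 9 weeks and 724.5 CPM at 6 weeks, and the classical-monocyte-like subset 319.1 and 472.0 CPM.

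Dendritic-like cells had 16.9 CPM of Cx3cr1 at 9 weeks and 32.3 CPM at 6 weeks, a log2 ratio of -0.77. The Cd209a and Mgl2 cluster was above the class level at both ages, at 119.9 CPM at 9 weeks and 142.0 CPM at 6 weeks. It held 123 of 1197 dendritic-like cells at 9 weeks and 76 of 295 at 6 weeks. With dendritic clusters weighted alike the log2 ratio was -0.07. T/NK/ILC-like cells had 58.6 CPM at 9 weeks and 32.2 CPM at 6 weeks, a ratio of 1.82 (1.37 to 2.45). This was 1 of 2 tested members past 1.5-fold higher there, where 3.64% of 8002 tested genes were that much higher and 2.89% that much lower. Their NK cluster with Gzma and Prf1, a known site of Cx3cr1, had 117.8 CPM at 9 weeks and 65.5 CPM at 6 weeks. Lyz2, a myeloid gene that these lymphocytes should lack, was at 289.0 CPM at 9 weeks and 42.4 CPM at 6 weeks in the same class, and 5 of 8 tested genes of classical monocytes were past 1.5-fold higher there at 9 weeks and 0 lower. Their part in the Cx3cr1 difference was not tested. Adrenocortical-like cells, which should lack Cx3cr1, also had more of it at 9 weeks, at 4.75 CPM against 1.74 CPM at 6 weeks. Neutrophil-like cells held 130 Cx3cr1 UMIs (24.6 CPM) at 9 weeks, 51.5% of them in the 5 highest cells, and 0 at 6 weeks. In their mature cluster alone the counts were 17 UMIs and 0. Endothelial-like cells had 11.8 CPM (49 UMIs) at 9 weeks and 3.29 CPM (11 UMIs) at 6 weeks, and 12 of the 49 were in 1 cell. Lyz2 was at 121.5 CPM in endothelial-like cells at 9 weeks and 50.5 CPM at 6 weeks, and its part in that difference was not tested either.

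Cx3cl1, the ligand of Cx3cr1, was at 21.2 CPM (19.6 to 22.8, from 664 UMIs) in adrenocortical-like cells at 9 weeks and at 9.23 CPM (8.52 to 9.99, from 620 UMIs) at 6 weeks, a ratio of 2.29 (2.05 to 2.56) and a log2 ratio of 0.88. It was the 1 member tested in this class, where 7.85% of 8590 tested genes were past 1.5-fold higher at 9 weeks and 4.09% past it lower. Within the 2 cortical clusters that held most of it, the intervals of the 2 ages overlapped. The cluster led by Ecrg4 and Vsnl1, which also carried the outer-cortical gene Hsd3b6, had 38.9 CPM (35.1 to 43.0) at 9 weeks, and at 6 weeks 45.3 CPM (41.0 to 49.9). The cluster led by Htra1 and Rtn4rl1 had 32.4 CPM (28.6 to 36.5) at 9 weeks, and at 6 weeks 33.3 CPM (28.7 to 38.4). The cluster with Srd5a2 and the corticosterone enzyme Cyp11b1 had 0.463 CPM at 9 weeks and 0.734 CPM at 6 weeks, and the cluster led by Apoc1 and Cyp2f2 had 0 UMIs at 9 weeks and 0.344 CPM (8 UMIs) at 6 weeks.

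The number of cells in these clusters differed between ages. The Ecrg4 and Htra1 clusters held 691 and 653 of 2099 adrenocortical-like cells at 9 weeks, and 613 and 455 of 4285 at 6 weeks, while the Cyp11b1 cluster held 629 at 9 weeks and 1794 at 6 weeks and the Apoc1 cluster 95 and 1377. With the same weight for a cluster at both ages, Cx3cl1 was at 16.1 CPM at 9 weeks and 18.0 CPM at 6 weeks, a log2 ratio of -0.12. Over all cells of each library the level was 8.88 CPM (788 UMIs) at 9 weeks and 8.16 CPM (706 UMIs) at 6 weeks, with a ratio of 1.09 (0.981 to 1.21). Thinned shares of adrenocortical-like cells with Cx3cl1 were 4.71% at 9 weeks and 1.77% at 6 weeks (23.5% and 9.89% unthinned), against 0% of B cell-like cells at both ages.

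**Figure D5:**
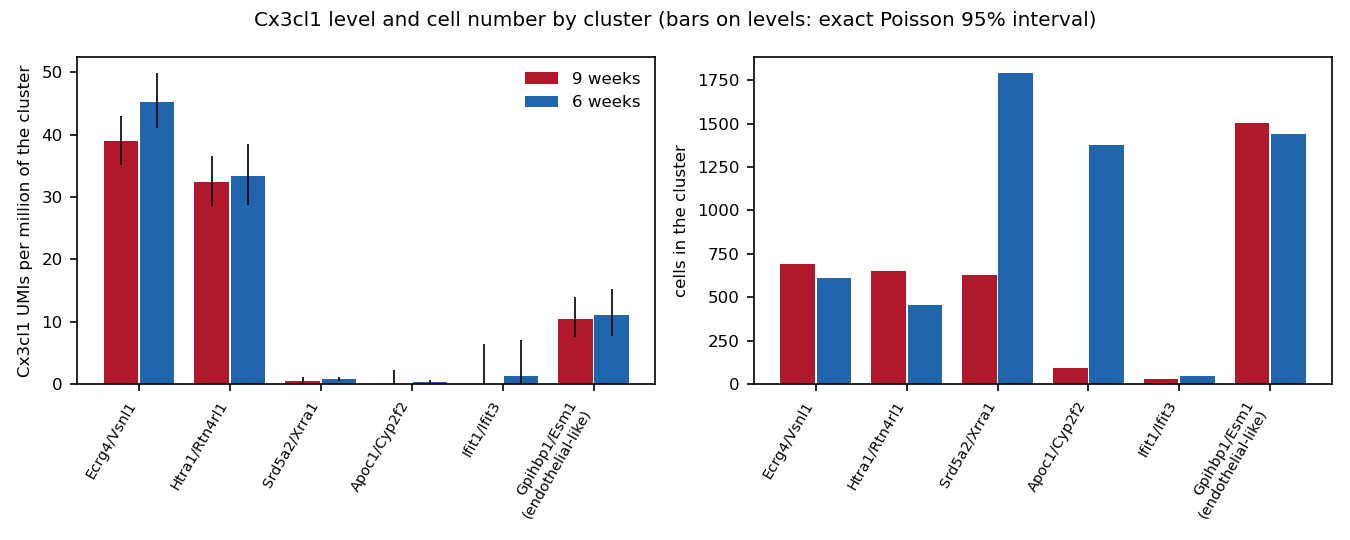
Cx3cl1 level (CPM, with exact Poisson 95% intervals) and number of cells in each adrenocortical-like cluster and in the endothelial-like cluster, 9-week values left of 6-week values. The Ecrg4 and Htra1 clusters have 38.9 and 32.4 CPM at 9 weeks and 45.3 and 33.3 CPM at 6 weeks, and the clusters with little Cx3cl1 hold more of the cells at 6 weeks.

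Endothelial-like cells, a textbook source of fractalkine, had 10.4 CPM of Cx3cl1 (7.49 to 13.9, from 43 UMIs) at 9 weeks and 11.1 CPM (7.78 to 15.2, from 37 UMIs) at 6 weeks, a ratio of 0.936 with an interval that includes equal levels. Thinned shares were 2.02% at 9 weeks and 1.61% at 6 weeks (2.53% and 2.22% unthinned), at median depths of 2636 and 2104 UMIs. Thinning left out 366 of 1502 endothelial-like cells at 9 weeks and 631 of 1439 at 6 weeks. An unnamed cluster led by Chgb, Chga and Npy had 11.5 CPM at 9 weeks and 65.7 CPM at 6 weeks, from 2 and 8 UMIs. In endothelial-like cells 1 of 4 tested members was past 1.5-fold higher at 9 weeks (Cx3cr1) and 2 lower (Ccl2 and Ccl12, with the 1 cell named above), against 1.27% higher and 1.45% lower of 8886 tested genes. The sheddase Adam10 was at 85.4 CPM in macrophage-like cells at 9 weeks and 85.9 CPM at 6 weeks, at 285.6 and 268.8 CPM in endothelial-like cells, and at 37.3 and 31.9 CPM in adrenocortical-like cells. Adam17 was at 107.6 CPM in macrophage-like cells at 9 weeks and 106.0 CPM at 6 weeks.

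Some other chemokines of macrophage-like cells were also lower at 9 weeks. In this class 2.69% of 7888 tested genes were past 1.5-fold lower at 9 weeks and 1.45% past it higher. Of 16 other chemokines of the Ccl family, 7 were tested, 3 were past 1.5-fold lower and 0 higher, and their median log2 ratio was -0.52, against 0.03 over all genes tested in the class. Those 3 were Ccl3 at 25.2 CPM at 9 weeks and 48.2 CPM at 6 weeks, Ccl9 at 113.5 and 196.3 CPM, and Ccl24, which draws eosinophils, at 2.68 and 59.8 CPM. Of 16 chemokines of the Cxcl and Xcl families, 6 were tested, 3 were lower and 0 higher, with a median of -0.71. They were the platelet factor Pf4 at 362 CPM at 9 weeks and 811.2 CPM at 6 weeks, and the interferon-induced Cxcl9 at 61.5 and 194.7 CPM and Cxcl10 at 57.6 and 110.5 CPM. Pf4 was also a leading gene of the macrophage-like cluster with Fcrls and Cbr2, which held 178 cells at 9 weeks and 382 at 6 weeks. Ccl24 was a leading gene of the cluster with Retnla, Folr2 and Lyve1, which held 3 and 13 cells. The part of cluster makeup in these differences was not tested. The 6 tested members themselves had a median of -0.44. Of the other chemokine receptors, 5 of 18 were tested and 1 was lower, Ccr3 at 2.51 CPM at 9 weeks and 11.2 CPM at 6 weeks. Ccr1, at 232.4 CPM at 9 weeks and 215.1 CPM at 6 weeks, was inside 1.5-fold. None of the 4 atypical chemokine receptors reached the level tested. Of 7 tested genes of non-classical monocytes, 2 were higher and 1 lower.

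In monocyte-like cells the genes of classical monocytes had a median log2 ratio of 0.39 over 12 tested, against 0.05 over all genes tested. Of these 12, 4 were higher and 1 lower at 9 weeks (2 higher and 1 lower under trimmed mean scaling). Of all 7704 genes tested in the class, 7.05% were past 1.5-fold higher at 9 weeks and 3.65% past it lower. The monocyte surface antigen Ly6c2 was at 2303 CPM at 9 weeks and 1395 CPM at 6 weeks, Chil3 at 2893 and 508.3 CPM, and Vcan, a matrix proteoglycan, at 87.3 and 56.2 CPM. Of 12 tested genes of non-classical monocytes, 4 were lower and 0 higher, with a median of -0.38, among them the peptidase Ace at 63.7 CPM at 9 weeks and 119.1 CPM at 6 weeks. The classical-monocyte-like subset held 199 of 270 monocyte-like cells at 9 weeks and 105 of 146 at 6 weeks. The non-classical-monocyte-like subset held 20 and 14, and the Cxcl10 and Cxcl9 subset 23 and 19. The part of this makeup in the differences was not tested. Other chemokines of the Ccl family split there, with 2 of 8 tested higher and 4 lower at 9 weeks. Of the other chemokine receptors, 6 were tested in monocyte-like cells, 2 were higher and 0 lower.

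In dendritic-like cells, where Ccr2 was lower at 9 weeks, 2.86% of 7378 tested genes were past 1.5-fold lower and 1.29% past it higher. Of 6 tested chemokines of the Ccl family, 5 were lower too and 0 higher, with a median log2 ratio of -1.17 against 0.05 over all genes tested. They were Ccl5 at 102.7 CPM at 9 weeks and 364.6 CPM at 6 weeks, Ccl6 at 67.8 and 130.6 CPM, Ccl9 at 20.5 and 78.0 CPM, and the mature dendritic chemokines Ccl17, with a log2 ratio of -1.45, and Ccl22 at 19.4 and 39.0 CPM. The mature cluster led by Ccl17 held 71 of 1197 dendritic-like cells at 9 weeks and 32 of 295 at 6 weeks. The Cd209a and Mgl2 cluster held 123 and 76. The part of cluster makeup in these differences was not tested.

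Across 30 clusters of at least 50 cells, with both libraries summed, the genes most like each member in level were ranked by Pearson's r of log2(CPM + 5) over 7582 genes. These clusters share libraries and differ in depth, so r is a description. Smaller clusters were left out, among them the Mcpt4 mast cell cluster, with 32 cells at 9 weeks and 8 at 6 weeks. The cluster with Retnla, Folr2 and Lyve1, with 3 and 13 cells, was left out as well. Each r thus leaves out the mast cells, which held Ccl2 and Ccl7 but 0 UMIs of Ccl8 and Ccl12. Ccl8 was most like Siglec1, Gm10134 and Lilra5 (0.96 each), and Ccl12 most like Tmem119 and Ang (0.96 each) and Siglec1 (0.95). Ccl7 was most like Olfml3 and Col14a1 (0.91 each) and Cbr2 (0.90), and Ccl2 most like Tmem106a and Mfsd1 (0.89 each) and Abhd12 (0.86). Ccr2 was most like Coro2a (0.89), Fgl2 (0.85) and Capzb (0.83), and Cx3cr1 most like Ms4a6d (0.94), Fcgr1 (0.91) and C1qc (0.90). Cx3cl1 was most like Dact1 and Slit3 (0.89 each) and Kazn (0.87). Among the members, r was 0.93 between Ccl8 and Ccl12, 0.42 between Ccr2 and Cx3cr1, and -0.25 between Cx3cl1 and Cx3cr1.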

How the data were processed

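Single-cell RNA was measured in 2 libraries, 1 at 9 weeks and 1 at 6 weeks, each from pooled adrenals. Per the labels' protocols, the libraries were made with the Chromium 3' v3.1 kit, and the submitters' processing notes name Cell Ranger 6.0.1, Seurat (version not given) and the build mm10. The authors deposited raw UMI counts, whole numbers for every gene in every barcode, from 10812 barcodes at 9 weeks and 8880 at 6 weeks, which hold 99728879 and 97001752 UMIs.

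Cells with at least 500 genes and at most 25% mitochondrial UMIs were kept, and Scrublet, run per library, removed 586 doublets at 9 weeks (5.567%) and 475 at 6 weeks (5.518%). The libraries were joined and clustered with no integration step (scanpy 1.11.5, leidenalg 0.10.2, Python 3.11.15), from 2000 variable genes without the 7 members and the other chemokine genes, 30 components and 20 neighbours at resolution 1. The 39 clusters were named from marker lists (at least 3 markers detected, and a second-best name under 0.75 of the best score). A name was also withheld where the top genes pointed to a different class, or where UMIs were low and no top gene was a marker. In all, 6 stayed unnamed. By score, the cluster led by Sox17 and Tm4sf1 was closest to endothelial (90 cells at 9 weeks, 94 at 6 weeks). The cluster led by Ighd and Cd79a, with 19 and 29 cells, was closest to adrenocortical. Both were left out of those classes and of their Cx3cl1 levels. Naming thresholds, the joining of dendritic, lymphocyte and macrophage clusters into classes and the subset clustering at resolution 0.5 were chosen after seeing the data. Rebuilt names can differ from the names the study used.

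UMIs were summed per class and library. Genes with at least 10 CPM in 1 library and 10 UMIs over both were compared as log2 ratios with a pseudocount of 5 CPM, which understate the change of low genes, and 1.5-fold was the call. Levels have exact Poisson intervals, ratios exact conditional binomial intervals and shares Clopper-Pearson intervals. A class was compared where both libraries held 50 or more of its cells. The genes named are the 7 members, genes of the chemokine and monocyte lists, the 3 genes most like each member, and leading genes of clusters. Lyz2 stands in a monocyte list and C1qa, Plvap and Pecam1 among the cell markers, and the single cells named were chosen after their values were seen. The members and lists were chosen with earlier results of these data known. The scripts were tested on simulated data. The NF-kB and interferon response motifs were shortened by 1 base after a first search of the promoters, in which the longer forms matched none of the members, so the Ccr2 match rests on the shorter form. Values of some list genes are not reported here.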

Additional observations from a re-analysis of the deposited data

Results flagged for a closer look

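Several differences between ages ran in opposite directions in 2 classes, and none of these differences between classes was tested. The log2 ratio of Ccr2, 9 over 6 weeks, was 2.29 in neutrophil-like cells, against -0.68 in macrophage-like and -0.72 in dendritic-like cells. The neutrophil-like value rests on 184 UMIs at 9 weeks and 1 UMI at 6 weeks, where the class held 192 cells with a median of 1540 UMIs. The 5 highest cells held 52.7% of the 184, and without the 5 highest cells of each library the log2 ratio was 2.14.

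For Cx3cr1 the log2 ratio was 2.57 in neutrophil-like, 0.77 in T/NK/ILC-like and 1.02 in endothelial-like cells, against -0.77 in dendritic-like cells. Neutrophil-like cells held 130 Cx3cr1 UMIs at 9 weeks and 0 at 6 weeks, at least 2.61-fold higher at 9 weeks when the 6-week class is set to 3 counts. The 5 highest cells held 51.5% of these 130 UMIs. The highest of them, with 17, held 40675 UMIs in all (class median 2761), among them 57 of C1qa and 5 of Adgre1. Without the 5 highest cells of each library the neutrophil-like log2 ratio was 1.80. The dendritic-like value was -0.07 with its clusters weighted alike.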

How the results depend on the processing

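No paired analysis was possible because each age has 1 library. At resolution 0.5 all 22 member values kept their size within counting error, and under trimmed mean scaling 21 did. That scaling put the median of all genes at 0.18 in neutrophil-like cells (-0.16 without it) and at -0.07 in adrenocortical-like cells (0.07 without it), and changed the count of classical monocyte genes higher in monocyte-like cells to 2, against 4. For macrophage-like cells the log2 ratio of Ccl8 was -3.00 with doublets kept, -2.82 with a pseudocount of 1 CPM, -2.41 with clusters weighted alike, and -2.22 both with subsets weighted alike and without the 5 highest cells per library. That of Ccl7 was -0.06 without those cells, and it passed 1.5-fold lower with 1000 genes (-0.63), with the members in the clustering (-0.61) and with subsets weighted alike (-0.63), which makes 3 of 6 members lower there. For Ccl12 it was -0.55 with a minimum of 1000 genes, -0.54 with the members kept in the clustering, -0.08 with clusters weighted alike and -0.26 without the 5 highest cells. For Cx3cr1 it was 0.07 with clusters weighted alike, 0.05 with subsets weighted alike and -0.14 as a mean over cells. Ccr2 in dendritic-like cells was at -0.62 with clusters weighted alike.

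Cx3cl1 in adrenocortical-like cells was at 0.70 with doublets kept, 1.06 with 1000 genes, 1.11 with a pseudocount of 1 CPM and -0.12 with clusters weighted alike, which turned its direction. In the first 2 settings the outer cortical cluster stayed unnamed, so the levels were 8.55 CPM at 9 weeks and 3.35 CPM at 6 weeks with doublets kept, and 12.3 and 3.28 CPM with 1000 genes. Values that rest on single cells also lost or changed their direction. Ccl8 in monocyte-like cells was at 0.00 without the 5 highest cells. Ccl2 in endothelial-like cells was at 0.02 with the members in the clustering and 0.00 without the 5 highest cells. Ccl12 in endothelial-like cells was at 0.31 with doublets kept and with 1000 genes, 0.22 with the members in the clustering and 0.20 without the 5 highest cells. All 14 unthinned shares of cells lay outside the interval of the thinned ones. Weighting clusters alike left 4 of its 11 values in place. Weighting subsets alike and leaving out cells were chosen after seeing the data. In classes of few UMIs, such as 6-week neutrophil-like cells with 318240, levels under 9.43 CPM could not be told from 0.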
